A study of Mus musculus with 20 samples.

Results

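The genotype by training interaction measures how far the transcript response of skeletal muscle to endurance training differed between transgenic and wild-type mice. Its members were all expressed probe sets, 13576 of the 22690 on the array, which read 8486 of the 12394 genes named there. The value of each is the trained minus untrained difference in transgenic mice less the same difference in wild-type mice, on the log2(intensity + 66.7) scale. The samples were skeletal muscle of 20 mice, 1 Affymetrix 3' expression array per mouse, in 4 groups of 5: trained and untrained transgenic mice (TGT and TGUT in the sample titles), and trained and untrained wild-type mice (WTT and WTUT). The series title calls the transgenic mice MHC-I over-expressed, and the labels do not spell MHC-I out. The sources used here do not give the construct or its promoter, the muscle, strain, sex, age or training protocol. Titles and source names define the groups; the description field, which reads transgenic and trained for all 20, was set aside. Nothing in the labels ties the mice to litters or cages, so p-values measure the spread between these mice.

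Endurance training is known to raise the mitochondrial and oxidative genes of muscle, through regulators such as the coactivator Ppargc1a, and to remodel its capillaries and matrix. Class I molecules of the major histocompatibility complex present peptides to T cells and are scarce on healthy muscle fibres, while type I myosin heavy chain, Myh7, is the motor of slow fibres. A positive interaction means that the training difference was more positive in transgenic mice, a negative one that it was more negative there.

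Array medians lay between 157 and 175 in intensity. The 15 tested fast fibre genes summed to 173947 to 190079 in each mouse, so the sarcomere transcripts of the labelled muscle were abundant on every array. Empty cells numbered 386 for TGT-133, a trained transgenic mouse, and 822 for wtt-137, a trained wild-type mouse, and were fewer on every other array. H2-K1, a class I heavy chain, averaged 1067 ± 411 in trained and 1069 ± 201 in untrained transgenic mice, against 1222 ± 345 in trained and 1102 ± 307 in untrained wild-type mice (SD, n = 5 each). The groups overlapped, and whether the probe set reads the transgene's transcript is unknown, so it does not check the genotype labels. Neither does Myh7, for which it is also unknown whether the probe set reads the transgene's transcript.

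No probe set passed the test of the interaction. In a limma fit of all 20 arrays, 0 of 13576 probe sets had an adjusted p under 0.05 (0%), and 395 (2.91%) had an unadjusted p under 0.05, against 679 at the 5% that the threshold lets through where nothing differs. The smallest unadjusted p was 0.000242, and the smallest adjusted p was 1. Of the 395, 124 lay above 0 (0.913% of those tested) and 271 below (2%), although the interactions of all probe sets were split 49.1% above and 50.9% below. Under quantile normalization the split was 202 above and 222 below. Of the alternative fits, 1 that weighted each array by how closely it followed its group called probe sets. It called 7, each below 0, with a smallest adjusted p of 0.0446: Lox, Serping1, Igfbp4, Prg4, Art3, Dock9 and Pigk. Its weights ran from 0.38 for TGUT-145 to 2.97 for WTT-129.

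**Figure D1:**
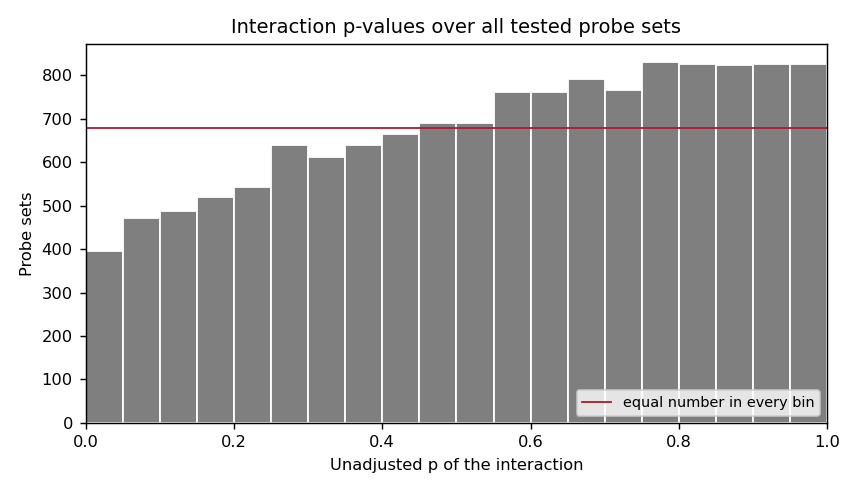
Number of probe sets (vertical axis) in 20 equal bins of the unadjusted interaction p (horizontal axis), over the 13576 probe sets tested. The red line marks an equal number in every bin; the first bin, p under 0.05, holds 395 and lies below the line, and the last holds 827.

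For most genes the size of any difference was bounded. The interaction had a median absolute value of 0.07 log2 and a median standard error of 0.11. Its 95% interval lay wholly between -0.5 and 0.5 log2 for 11254 probe sets (82.9%). For 13122 (96.7%) it lay between -1 and 1. A value of 0.5 log2 is a 1.41-fold difference in response for intensity plus the added constant. For intensity alone the same value stands for a larger fold difference, most of all in dim probe sets, so the bound is looser there. Genes that varied widely from mouse to mouse had wider intervals, and a smaller difference in response was not detectable for them with 5 mice per group.

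Limma called 42 probe sets for training in transgenic mice (0.309%; 17.4% at an unadjusted p under 0.05) and 0 in wild-type mice (0%; 1069 or 7.87% at an unadjusted p under 0.05), while the difference between the responses was called for none. Across the 13576 probe sets the training differences of the genotypes, which share no mouse, correlated with Pearson's r = 0.506 and Spearman's rho = 0.534. Probe sets of 1 array share its RNA and scaling and are not independent, so these values are a description. The difference had the same sign in both genotypes for 68.5% of probe sets, and its median absolute value was 0.077 log2 in transgenic and 0.06 log2 in wild-type mice.

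**Figure D2:**
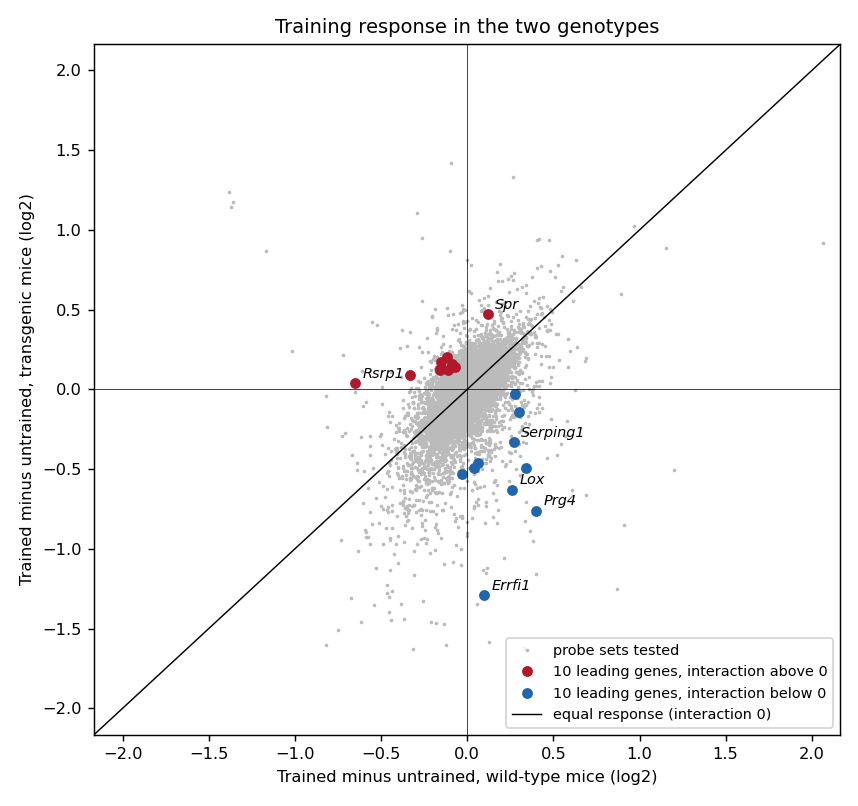
Trained minus untrained difference in log2 for transgenic and wild-type mice; each grey point is 1 of the 13576 probe sets tested, and points on the diagonal have an interaction of 0. The coloured points are the 10 genes on each side with the smallest interaction p, none past the adjusted threshold, and the cloud as a whole slopes upward (Pearson's r = 0.506).

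Genes of the respiratory chain, the classic targets of training, had interactions near 0 with narrow intervals. Of 50 tested oxidative phosphorylation genes, 0 had an unadjusted p under 0.05, beside 2.62% of all 8486 genes, 0.919% above 0 and 1.7% below (each read by its brightest tested probe set). Their interactions ran from -0.13 to 0.12 log2 with a median of 0.05 (0.02 without TGUT-146 and 0.09 without TGUT-145), and for all 50 the 95% interval lay within 0.5 log2 either way. Of these genes 41 lay above 0, beside 51.3% of all genes, of which 48.7% lay below 0. The median training difference of the list was 0.17 log2 in transgenic and 0.12 log2 in wild-type mice.

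Limma called 25 genes for training in transgenic mice, of which 11 rose and 14 fell. The wild-type difference had the same sign for 24 of the 25. Their interactions ran from -1.07 to 0.59 log2, and 16 had an unadjusted p under 0.05, beside 2.62% of all genes. The training call and the interaction use the same transgenic mice, so the count of 16 follows in part from how the genes were picked. Genes with wild-type differences nearer 0, named after their values were seen, included the serine protease Htra1 (-1.33 log2 in transgenic and -0.26 in wild-type mice; interaction -1.07 ± 0.38, SE), the activin receptor Acvr1b (-1.09 and -0.08; -1 ± 0.32), the transcription factor Ets2 (-0.86 and -0.06; -0.81 ± 0.25) and Ppif, cyclophilin D of mitochondria (0.79 and 0.19; 0.59 ± 0.21). Of the 25, 4 were oxidative phosphorylation genes, also named after their values were seen. Ndufb10, part of complex I, rose by 0.40 ± 0.08 log2 (SE; adjusted p = 0.0453) in transgenic mice, against a difference of 0.37 ± 0.08 in wild-type mice, and its interaction was 0.03 (95% interval -0.20 to 0.27). Atp5g1, which encodes the c ring of ATP synthase, rose by 0.40 ± 0.07 log2 (adjusted p = 0.0355) in transgenic mice, against 0.32 ± 0.07 in wild-type mice, with an interaction of 0.07 (-0.14 to 0.28). The complex I subunits Ndufa8 and Ndufb9 had interactions of 0.12 (-0.12 to 0.36) and 0.06 (-0.08 to 0.19).

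Citrate synthase, Cs, the entry enzyme of the tricarboxylic acid cycle, had an interaction of 0.10 ± 0.07 log2 (SE; 95% interval -0.05 to 0.26). The vascular growth factor Vegfa had 0.04 ± 0.10. Ppargc1a stood at 995, 738, 677, 748 and 802 in trained and at 302, 287, 1106, 632 and 1248 in untrained transgenic mice. Its wild-type values were 797, 904, 911, 1006 and 1339 in trained and 851, 1568, 1338, 314 and 1481 in untrained mice. In both genotypes the untrained mice spanned a wider range than the trained ones, and the interval of its interaction, from -0.77 to 1.44 log2, spans both directions. Its relative Ppargc1b had an interaction of 0.47 ± 0.24 (unadjusted p = 0.0605). Of 21 tested fatty acid genes, 16 lay above 0 with a median of 0.16, and that median was 0.05 without TGUT-146 and -0.13 under array weights.

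The 10 genes with the smallest p below 0 had unadjusted p-values from 0.000328 to 0.00368, and 9 of them had training differences of opposite sign in the genotypes. That count follows in part from picking genes by the difference between the responses. Over all probe sets 68.5% had the same sign. Some of these differences were smaller than their SE, as for Eif5 in wild-type mice (0.06 ± 0.09). Lox, lysyl oxidase, which cross-links collagen and elastin, stood at 245, 278, 303, 227 and 402 intensity in trained and at 515, 527, 318, 505 and 566 in untrained transgenic mice. In wild-type mice it was 424, 492, 394, 662 and 596 in trained and 407, 417, 372, 401 and 459.9 in untrained animals. Trained transgenic mice had the lowest mean, and each pair of groups overlapped. The Lox interaction was -0.89 ± 0.20 log2 (SE; 95% interval -1.31 to -0.46; unadjusted p = 0.000328, limma adjusted p = 1). A second Lox probe set had -0.65 ± 0.20.

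Serping1, the inhibitor of the first complement component, stood at 544, 609, 651, 795 and 639 in trained and at 844, 895, 744, 717 and 962 in untrained transgenic mice. Wild-type values were 838, 736, 687, 954 and 789.5 in trained and 688, 604, 618, 593 and 743 in untrained mice. Means were lower in trained than untrained transgenic mice and higher in trained than untrained wild-type mice, with overlap in both genotypes. Its interaction was -0.61 ± 0.14 log2 (SE; 95% interval -0.90 to -0.31; unadjusted p = 0.000378, limma adjusted p = 1).

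Prg4, lubricin, a lubricating glycoprotein of joints and tendons, stood at 316, 238, 303, 262 and 336 in trained and at 830.2, 505, 228, 866 and 503 in untrained transgenic mice. Trained wild-type mice had 685, 663, 456, 810.4 and 697, and untrained ones 632, 487, 388, 458 and 445. All trained transgenic mice were lower than any wild-type mouse of either state, whereas 1 untrained transgenic mouse, TGUT-145 at 228, was the lowest of all. The Prg4 interaction was -1.17 ± 0.32 log2 (SE; 95% interval -1.84 to -0.50; unadjusted p = 0.00165, limma adjusted p = 1).

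Errfi1, a feedback inhibitor of the epidermal growth factor receptor, had the most negative value of the 10. Trained transgenic mice had 388, 462, 476, 445 and 683, and untrained ones 2113, 1883, 775, 1027 and 1064, without overlap. Trained wild-type mice had 705, 959, 700.1, 1511 and 1531, and untrained ones 779.8, 1568, 839, 599 and 1215. The only overlap of the trained transgenic group with any other was between TGT-143 at 683 and WTUT-138 at 599. The Errfi1 interaction was -1.40 ± 0.40 log2 (SE; 95% interval -2.23 to -0.56; unadjusted p = 0.00238, limma adjusted p = 1), and a second probe set had -1.26 ± 0.37.

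Eif5, a factor that promotes GTP hydrolysis at the start codon, stood at 812, 893, 734, 898 and 793 in trained and at 1297, 1092, 1108, 1207 and 1108 in untrained transgenic mice, without overlap. Its wild-type values, 839, 915, 915, 1142 and 1028 in trained and 887, 967, 900.3, 759 and 1124 in untrained mice, overlapped widely. Eif5 fell by 0.46 log2 with training in transgenic mice (limma adjusted p = 0.0453), and its interaction was -0.52 ± 0.13 (SE; unadjusted p = 0.000795). The other 3 tested probe sets of Eif5 had -0.54, -0.36 and -0.34.

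Art3, a member of the ADP-ribosyltransferase family, averaged 1005 ± 96.5 in trained and 1495 ± 255 in untrained transgenic mice, against 1080.0 ± 106 in trained and 1099 ± 55.3 in untrained wild-type mice (SD, n = 5 each). Every untrained transgenic mouse lay above every mouse of the other 3 groups. Art3 fell by 0.53 log2 with training in transgenic mice (limma adjusted p = 0.0355), and its interaction was -0.50 ± 0.14 (unadjusted p = 0.00147).

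The others were Palmd, a paralemmin relative (-0.32 ± 0.09 log2, SE), Timp3, an inhibitor of matrix metalloproteinases (-0.43 ± 0.12), Rhob, a small GTPase (-0.53 ± 0.16), and Lrg1, a secreted glycoprotein (-0.83 ± 0.25). For Palmd and Timp3 the trained and untrained wild-type mice did not overlap while the transgenic ones did, and for Rhob it was the reverse. Igfbp4, which binds insulin-like growth factors, had the smallest p of all probe sets (0.000242), at -0.93 log2. Its 6 tested probe sets all lay below 0, up to -0.23, and the brightest gave -0.39 ± 0.16 (unadjusted p = 0.0232).

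**Figure D3:**
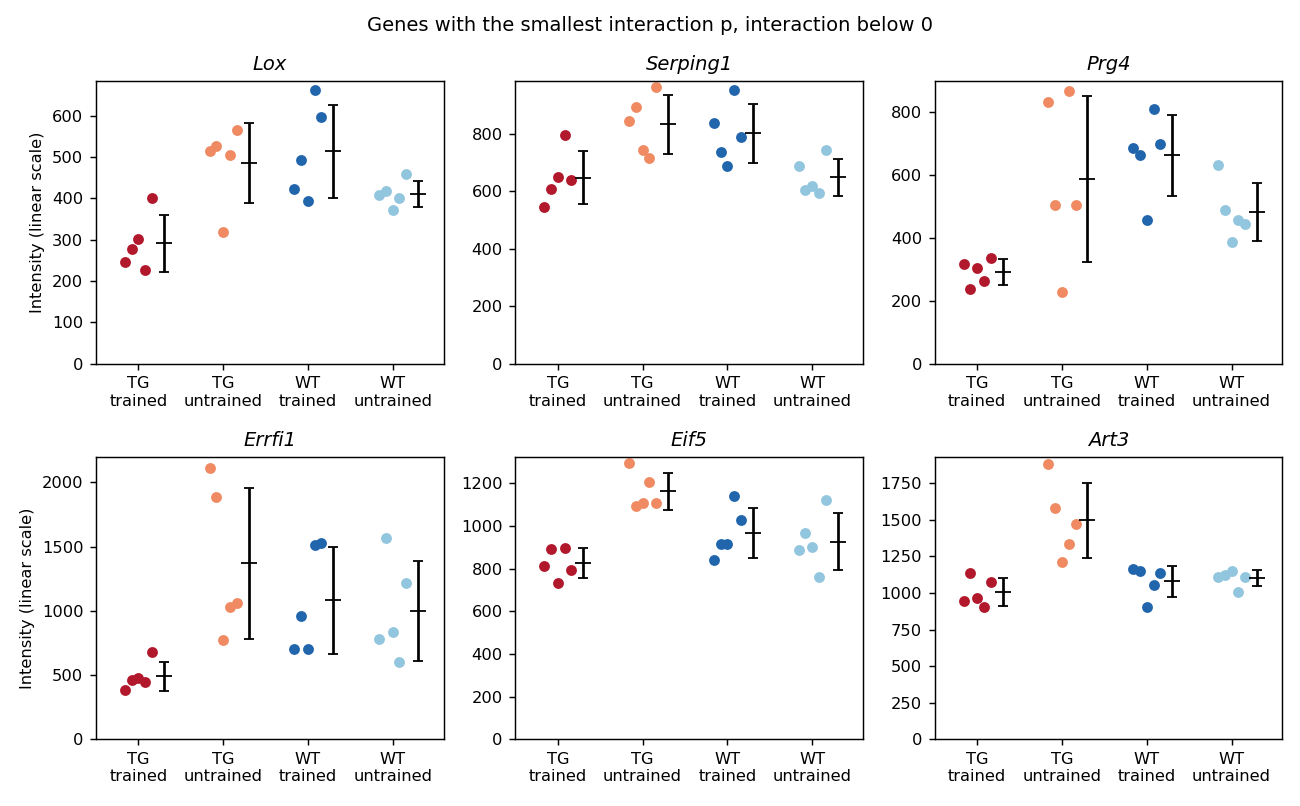
Intensity on a linear scale (vertical axis) of 6 of the genes with the smallest interaction p below 0; each point is 1 mouse, in 4 groups of 5, and the black mark is the mean ± SD. The trained transgenic group has the lowest mean in each panel, and in Art3 the untrained transgenic mice stand above all others.

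On the positive side the values were smaller, from 0.21 to 0.69 log2 in the 10 genes with the smallest p. Of the 10, 9 again had training differences of opposite sign, a count that also follows in part from how they were picked. Spr, sepiapterin reductase, the last enzyme of tetrahydrobiopterin synthesis, had the same sign in both genotypes. It stood at 319, 344, 334, 346 and 366 in trained and at 208, 185, 261, 240.0 and 253 in untrained transgenic mice, without overlap. In wild-type mice it was 264, 309, 319, 321 and 319 with training, and in untrained ones 262, 269, 286, 272 and 289, with overlap through WTT-129. Spr rose by 0.47 log2 in transgenic mice (limma adjusted p = 0.00773), against a difference of 0.12 in wild-type mice. Its interaction was 0.35 ± 0.09 log2 (SE; 95% interval 0.15 to 0.54; unadjusted p = 0.00136, limma adjusted p = 1).

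Hspa8, the constitutive Hsp70 chaperone, stood at 5381, 5584, 5796, 5276 and 4934 in trained and at 4932, 4768, 5219, 4409 and 5322 in untrained transgenic mice. The wild-type values were 5837, 6047, 5764, 5362 and 5072 in trained mice, and in untrained ones 5806, 6169, 6474, 6282 and 6706. Untrained transgenic mice lay below untrained wild-type mice without overlap, and the trained groups overlapped. The Hspa8 interaction was 0.29 ± 0.08 log2 (SE; 95% interval 0.11 to 0.47; unadjusted p = 0.00269, limma adjusted p = 1), and further probe sets had 0.42 and 0.39.

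Pdgfa, a platelet-derived growth factor chain, stood at 380.0, 326, 356, 327 and 307 in trained and at 262, 319, 374, 266 and 361 in untrained transgenic mice. Trained wild-type mice had 387, 435, 427, 320.3 and 406, and untrained ones 484, 560.1, 500.4, 482 and 536. Untrained wild-type mice lay above every other mouse. The Pdgfa interaction was 0.42 ± 0.12 log2 (SE; 95% interval 0.16 to 0.68; unadjusted p = 0.00281, limma adjusted p = 1). Rsrp1, an arginine- and serine-rich protein, was likewise highest in untrained wild-type mice, of which 1 has an empty cell. Its means were 1042 ± 107 in trained and 1029 ± 232 in untrained transgenic mice, against 984 ± 195 in trained and 1575 ± 230.4 in untrained wild-type mice (SD, n = 5, and n = 4 in the last group). Its interaction of 0.69 ± 0.21 log2 was the largest of the 10.

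The remaining 6 were Tm7sf2, a reductase of cholesterol synthesis (0.32 ± 0.08 log2, SE), the retinol dehydrogenase Rdh13 (0.25 ± 0.08), the RNA-binding protein Msi2 (0.32 ± 0.10), the secreted protein Itih4 (0.21 ± 0.07), the protease Prss40 (0.23 ± 0.08) and the deubiquitinase Usp20 (0.28 ± 0.09). Group means of these 6 ran from 126 (Usp20, trained wild-type mice) to 230 (Msi2, trained transgenic mice), beside array medians of 157 to 175. Apart from Msi2, none had a group mean above 189 (Tm7sf2, trained transgenic mice). The constant added to each intensity shrinks both the log2 differences and the SE of such dim probe sets. Every further tested probe set of the 20 genes, 12 in all, had the same sign as the brightest. Not every gene has one, and they read the same RNA of the same mice, so this is no separate check of the interactions.

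The transgene had passed the threshold for several genes in 1 training state and not in the other, and the interaction tests that difference directly; it was called for none of them. Limma called the transgene for 7 probe sets in trained (0.0516%; 12.5% at an unadjusted p under 0.05) and 15 in untrained mice (0.11%; 8.12%). Csrp3, a LIM protein that senses stretch at the Z-disc, stood at 1798, 1699, 1107, 1379.7 and 2417 in trained and at 939.7, 213, 747, 182 and 1724 in untrained transgenic mice. Csrp3 in wild-type mice was 2672, 4990.1, 2220.0, 4609.9 and 3505 with training, and in untrained ones 2828, 3619.7, 4232, 3865 and 4019. Untrained transgenic mice lay below untrained wild-type mice without overlap, and among trained mice TGT-143 at 2417 overlapped with the wild-type range. The transgene difference was -1.05 log2 in trained (limma adjusted p = 0.307) and -2.56 in untrained mice (adjusted p = 0.0171). The Csrp3 interaction was 1.51 ± 0.57 (SE; 95% interval 0.32 to 2.70; unadjusted p = 0.0155, adjusted p = 1).

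Phlda3, a repressor of Akt that p53 induces, stood at 510.4, 606, 793, 585 and 856 in trained and at 426, 327, 503, 407 and 608 in untrained transgenic mice. For wild-type mice the trained values were 1202, 835, 1158, 812 and 955, and the untrained ones 1157, 777, 1552, 1159.9 and 1104. Transgenic means were lower in both states, with overlap among trained mice and none among untrained mice. The Phlda3 interaction was 0.69 ± 0.24 log2 (SE; 95% interval 0.18 to 1.19; unadjusted p = 0.0103, limma adjusted p = 1).

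Enc1, a kelch protein that binds actin, had the reverse pattern, with the transgene called in trained mice (-1.43 log2, limma adjusted p = 0.00535) and not in untrained mice (-0.60, adjusted p = 0.345). Its means were 142.1 ± 37.3 in trained and 327 ± 164 in untrained transgenic mice, against 491 ± 30.5 in trained and 494 ± 51 in untrained wild-type mice (SD, n = 5 each). At the low intensity of the trained transgenic mice the added constant shrinks log2 differences. The untrained transgenic mice spread from 182 to 557, and the interaction was -0.83 ± 0.27 log2 (95% interval -1.40 to -0.26; unadjusted p = 0.00642).

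Among further genes called for the transgene in untrained mice alone, the interaction was 0.58 ± 0.38 log2 (SE) for Ankrd2, a stretch-responsive ankyrin repeat protein, 0.30 ± 0.13 for the secreted protein Olfm1, 0.27 ± 0.13 for the nuclear exporter Xpo1, 0.18 ± 0.25 for Tnfrsf12a, the TWEAK receptor, and -0.26 ± 0.11 for Tef, a clock-controlled transcription factor. Intervals of Ankrd2 and Tnfrsf12a included 0. The slow fibre genes Tnni1 and Myl2, called for the transgene in both states, had -0.46 ± 0.35 and -0.37 ± 0.55, and Tnnt1, called in trained mice, had -0.58 ± 0.58. Tnni1 averaged 152 in trained and 161 in untrained transgenic mice, against 692 and 516 in wild-type mice. The added constant shrinks a training difference more at the lower intensity of the transgenic mice. Myh7 had -0.34 ± 0.52 and the co-chaperone Bag3 0.09 ± 0.18, neither called in either state. Myh7 averaged 395 ± 75.4 in trained and 473.5 ± 202 in untrained transgenic mice (SD, n = 5 each). Its wild-type means were 1259 ± 566 in trained and 1254 ± 928 in untrained mice. For both genes transgenic mice lay below wild-type mice without overlap when trained, and the untrained groups overlapped.

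**Figure D4:**
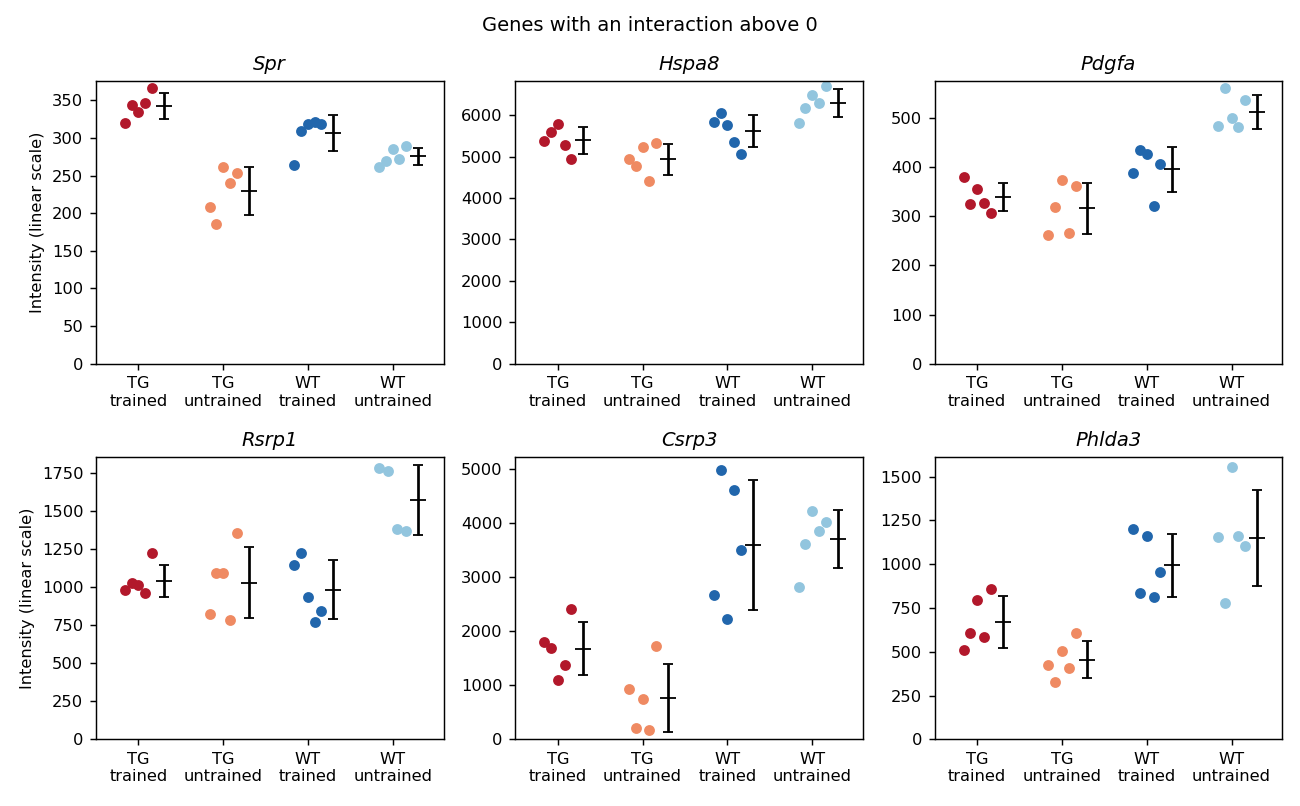
Intensity on a linear scale (vertical axis) of 4 of the genes with the smallest interaction p above 0 and of Csrp3 and Phlda3; each point is 1 mouse, in 4 groups of 5, and the black mark is the mean ± SD. Rsrp1 has 4 untrained wild-type points because of an empty cell. In Pdgfa and Rsrp1 the untrained wild-type mice stand above the other groups, and in Csrp3 and Phlda3 both transgenic means lie below both wild-type means.

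The 33 gene lists are described by counts and medians, and no member of any was called. Over all genes the median was 0.00 log2, with 51.3% above 0 and 48.7% below. An unadjusted p under 0.05 was found for 2.62%, 0.919% above 0 and 1.7% below. Members of a list are read in the same mice and are not independent, so their counts are a description. Of the heat shock genes, chaperones that refold damaged proteins, 18 of 20 tested lay above 0, with a median of 0.21, and 4 had an unadjusted p under 0.05 (Hspa8, Hspa1b and Cryab above 0, Dnajb5 below). The median was 0.14 without TGUT-146, and 7 members had an unadjusted p under 0.05 without TGUT-145. Leaving out TGUT-145 also raised the share over all probe sets, from 2.91% to 5.35%. Hspa1b, an inducible Hsp70 named after its values were seen, had the most positive interaction of all genes, 2.51 ± 1.08 log2 (SE; 95% interval 0.25 to 4.78; unadjusted p = 0.0316). It stood at 2638, 1333, 1696, 657 and 1002 in trained and at 181, 209.8, 3373, 184 and 1589 in untrained transgenic mice. Trained wild-type mice had 2111, 3284, 6009, 366 and 443, and untrained ones 3140.1, 2214, 7255, 3013 and 6714. The trained and untrained mice overlapped in both genotypes, and mice of 1 group differed widely.

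Glucocorticoid response genes, which stress hormones induce, lay on the other side, with 17 of 18 below 0 and a median of -0.53 log2. Their median training difference was -0.71 in transgenic and -0.15 in wild-type mice. The 5 with an unadjusted p under 0.05 were Errfi1, the transcription factor Zbtb16 (-0.90 ± 0.30, SE), the kinase Sgk1 (-0.86 ± 0.33), the inhibitor of NF-kappaB Nfkbia (-0.57 ± 0.24) and the leucine zipper protein Tsc22d3 (-0.39 ± 0.15). As a score per mouse, the mean log2 deviation over the list, they gave -0.64, -0.42, -0.31, -0.49 and -0.40 in trained and 0.47, 0.50, -0.27, 0.36 and 0.29 in untrained transgenic mice. Wild-type scores were -0.04, -0.07, -0.48, 0.31 and 0.38 in trained and -0.03, 0.51, -0.02, -0.07 and 0.49 in untrained mice. Trained transgenic mice were all below -0.3, and TGUT-145 and 1 trained wild-type mouse were the only others near them. Without TGUT-145 the median was -0.73 and 11 members had an unadjusted p under 0.05, and without wtt-137 9 had. Over all probe sets that share rose as well, from 2.91% to 5.35% without TGUT-145 and 4.74% without wtt-137.

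Of 22 protein breakdown genes, the ubiquitin ligases, autophagy and Foxo genes of atrophy, 19 lay below 0 with a median of -0.31 log2 and 0 had an unadjusted p under 0.05. Single mice changed both values. The median was -0.15 without TGUT-131, -0.18 without WTT-144, -0.49 without TGUT-145 and -0.51 without wtt-137. It stayed below 0 whichever mouse was left out. The count was 6 without TGUT-145 and 5 without wtt-137, while the share over all probe sets went from 2.91% to 5.35% and 4.74%. Of 12 p53 targets 10 lay below 0, with a median of -0.36; the growth arrest gene Gadd45a had -0.97 ± 0.38 (SE) and Btg2 -0.94 ± 0.44, while Phlda3 lay above 0. The p53 targets at an unadjusted p under 0.05 numbered 3, and 6 without TGUT-145 or 5 without wtt-137, where the share over all probe sets rose too. These lists share members with the glucocorticoid list or each other, Klf15 and Cdkn1a among them, so their counts are not separate. With the glucocorticoid score as a covariate, an alternative chosen after seeing the data, the protein breakdown median was 0.21. The p53 median was then -0.02 and that of the matrix genes, described next, -0.35. The score itself averaged -0.45 in trained and 0.27 in untrained transgenic mice, so such shifts are in part built in. A cause was not tested.

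Of 24 matrix genes 17 lay below 0, with a median of -0.19 log2. At an unadjusted p under 0.05 were 7, all below 0, beside 1.7% of all genes. Beside Lox these were the thrombospondin Thbs4 (-0.56 ± 0.25, SE), the proteoglycans Dcn (-0.47 ± 0.20) and Ogn (-0.42 ± 0.19), the basement membrane collagen Col4a1 (-0.44 ± 0.19), the metalloproteinase Mmp2 (-0.44 ± 0.19) and its inhibitor Timp2 (-0.39 ± 0.18). The fibrillar collagens had 0.00 ± 0.22 for Col1a1 and -0.27 ± 0.56 for Col3a1, and the collagen chaperone Serpinh1 had 0.93 ± 0.47. The result rests in part on 1 mouse: without wtt-137 the median was -0.01, with 12 of 24 above 0. The count at an unadjusted p under 0.05 was then 5, while the share over all probe sets rose from 2.91% to 4.74%. That count ran from 2 to 8 when each mouse was left out, and was 5 under quantile normalization.

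Of the macrophage markers 15 of 22 listed were tested, and their part in the matrix values was not tested. None was called, 12 lay below 0 (median -0.13 log2), and 3 had an unadjusted p under 0.05: the mannose receptor Mrc1 (-0.29 ± 0.10, SE) and the complement chains C1qa (-0.50 ± 0.19) and C1qc (-0.44 ± 0.16). Their summed intensity ranged from 3534 to 4701 in trained and 3563 to 4196 in untrained transgenic mice, against 4137 to 5382 in trained and 3490 to 4000 in untrained wild-type mice. Mouse wtt-137 had the highest marker score, 0.35, against 0.03 to 0.10 in the other trained wild-type mice. The median was -0.07 without wtt-137 and -0.22 without TGT-133. The defining marker Cd68 was not among the probe sets tested. In bulk muscle, fewer cells of a type and less RNA per cell cannot be told apart.

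Class I and antigen processing genes had a median of -0.01 log2 over 9 tested members, and of 0.02 under quantile normalization. H2-K1 had -0.19 ± 0.31 (SE; 95% interval -0.84 to 0.46), H2-D1 -0.22 ± 0.31, the light chain B2m -0.12 ± 0.25 and the immunoproteasome subunit Psmb8 0.03 ± 0.09. Of 28 unfolded protein response genes, 15 lay above 0 with a median of 0.02. The chaperone Hspa5 had 0.11 ± 0.16 and the transcription factor Ddit3 0.05 ± 0.10, while Chac1, a glutathione-degrading enzyme, had -1.33 ± 0.57 (unadjusted p = 0.029) and Herpud1 -0.31 ± 0.13. Ddit3 was dim too, with group means of 155.5 to 172.5. The 13 tested interferon response genes had a median of 0.01, each with a 95% interval within 0.5 log2 either way.

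All 21 tested cytosolic ribosome genes lay below 0, from -0.22 to -0.05 log2 with a median of -0.13, which was -0.07 without trained wild-type mouse WTT-144. That mouse had a score of 0.29 over the list, against -0.05 to 0.01 in the rest of its group. Of the 21, 1, Rps14, had an unadjusted p under 0.05 (-0.16 ± 0.06, SE). The proteasome had 23 of 30 below 0 with a median of -0.09 (-0.17 without TGUT-146 and -0.04 without TGUT-131, TGUT-147 or WTT-144), and under quantile normalization 15 of its 30 lay above 0. The amino acid enzyme Gpt2 fell by 0.71 log2 with training in transgenic mice (limma adjusted p = 0.0383) and had an interaction of -0.59 ± 0.19 (unadjusted p = 0.00627).

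**Figure D5:**
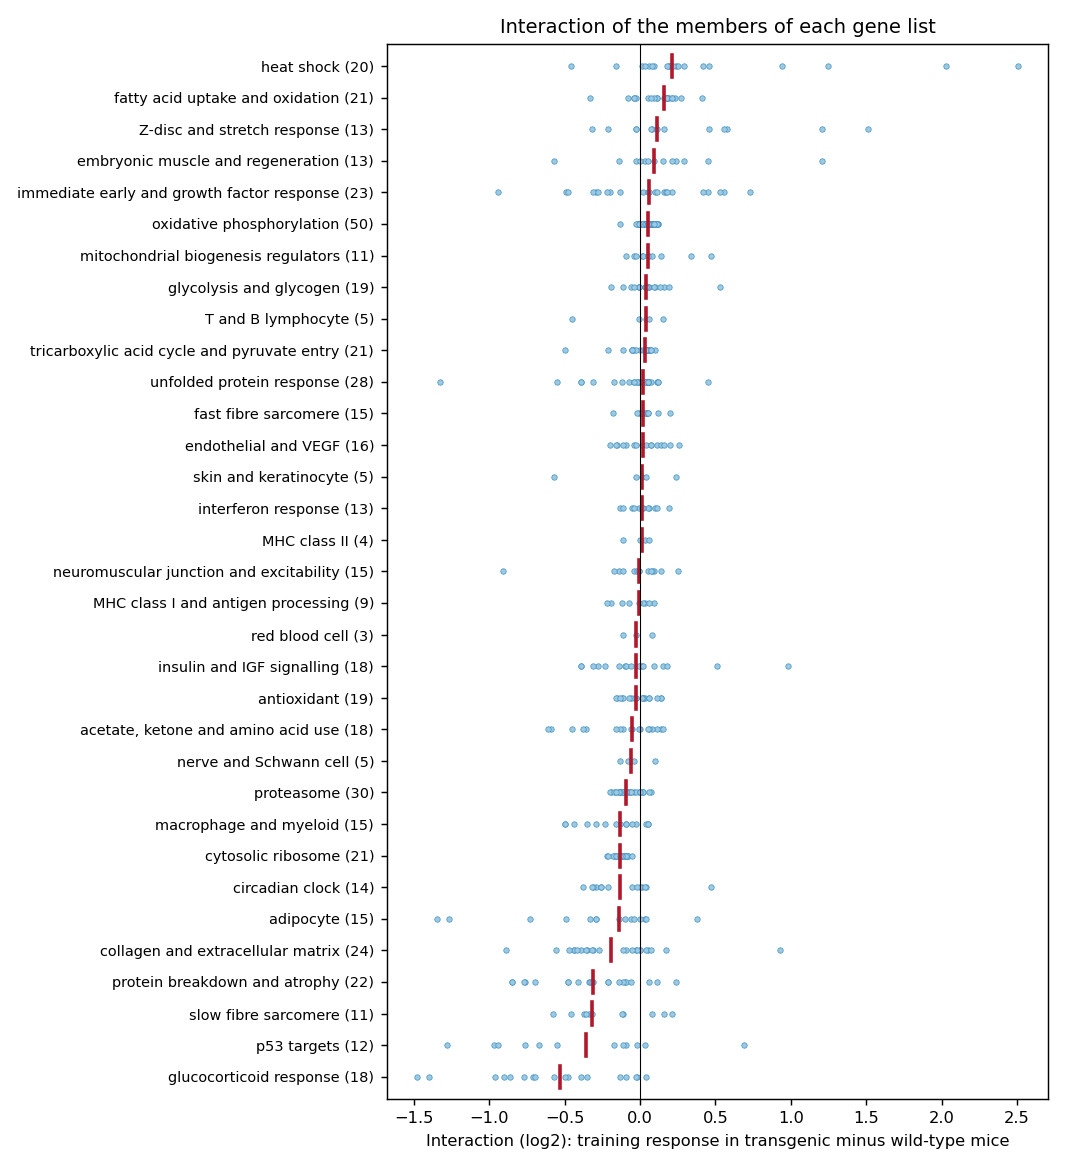
Interaction in log2 (horizontal axis) of each tested member (points) of the 33 gene lists, sorted by median (red bar), with the number of tested members in brackets. The medians run from 0.21 for heat shock to -0.53 for glucocorticoid response, and no point passed the adjusted threshold.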

How the data were processed

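The authors deposited 1 intensity per probe set and array on a linear scale, without header notes on summary or scaling; the sources used here give neither. Groups came from the sample titles. Empty cells (1745, 0.385%) were treated as missing. Control probe sets (64) were left out. Deposited values were used with no further scaling, as log2(intensity + 66.7), the constant being the table's 20th percentile. Probe sets under the 40th percentile of the mean over all arrays (log2 7.59) were left out, which kept 13576. The interaction and its parts were contrasts of 4 group means in limma 3.58.1 (R 4.3.3; eBayes with trend, 16 residual degrees of freedom, two-sided), with Benjamini-Hochberg adjustment over all 13576 and a call at adjusted p under 0.05. The fit was tested on simulated data. The array is read by intensity, so the number of arrays limits the precision. Probe sets were named through the platform annotation, in which 20380 have 1 symbol, 691 several and 1555 none; probe sets with several were not named.

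Named genes were those past the threshold, filled to 10 by smallest p in each direction, the member of each list with the smallest p, and a set of transgene, class I, stress and training genes; a gene was read by its brightest tested probe set. The members and gene lists were chosen with earlier results of these data known. Alternatives covered normalization, the added constant, the filter, the variance model, probe set choice, empty cells, the Gapdh 3' over 5' ratio and leaving out each mouse.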

Additional observations from a re-analysis of the deposited data

Results flagged for a closer look

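In 8 groups of mice (6.06% of those examined), the highest or lowest mouse lay farther from the rest than Dixon's 95% critical value (0.71 for 5 mice) allows; chance flags about 5% of groups. Untrained transgenic mouse TGUT-145 had 318.4 for Lox, against 505 to 565.8 in the other mice of its group, and a glucocorticoid response score of -0.27, against 0.29 to 0.50. Trained transgenic mouse TGT-143 had 1227 for Rsrp1, against 960.8 to 1024 in the others of its group. Trained wild-type mouse WTT-129 had 263.8 for Spr, against 308.6 to 320.9, and untrained wild-type mouse WTUT-138 had 1004 for Art3, against 1109 to 1148. Trained wild-type mouse wtt-137 had a macrophage score of 0.35, against 0.03 to 0.10 in its group. For the cytosolic ribosome score, trained wild-type mouse WTT-144 had 0.29, against -0.05 to 0.01, and untrained wild-type mouse WTUT-138 had -0.06, against 0.03 to 0.05.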

How the results depend on the processing

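The count of 0 called probe sets held under every alternative run except array weights, with 7, and was 0 to 0 when each mouse was left out; the smallest adjusted p was then 0.0871, without TGUT-145. The 395 probe sets at an unadjusted p under 0.05 became 624 with no filter, 1708 with array weights, 259 without probe sets that can bind several transcripts and 228 with 1 probe set per gene, the first and last 2 of which test other numbers of probe sets. Leaving out 1 mouse gave 282 (without WTT-144) to 726 (without TGUT-145), with 644 without wtt-137. The simple effects of the named genes were called 19 times, 70 times with array weights, 9 times without probe sets that bind several transcripts, and 6 to 36 times with 1 mouse left out. List members called were 0, but 1 with array weights (Lox), and 0 to 0 with 1 mouse left out. Where not given by the number tested, the cause was not tested. No paired analysis was possible because the groups share no mouse number. The number of arrays limits the precision.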

Other observations

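Cyp2e1, a cytochrome P450 chosen after its values were seen, had the most negative interaction of all genes, -2.12 ± 0.91 log2 (SE; 95% interval -4.03 to -0.21; limma unadjusted p = 0.0313). It stood at 314, 159, 1799 and 310.5 in trained transgenic mice, of which 1 has an empty cell, and at 994, 1708, 1002, 548 and 1791 in untrained ones. Trained wild-type mice had 2766, 849.6, 3317, 1107 and 803, and untrained ones 171, 444, 720.4, 2177 and 1989.8, so all groups overlapped. Adipocyte genes summed to 14041 to 36676 in trained and 19230 to 25369 in untrained transgenic mice, against 19686 to 38803 in trained and 19444 to 36893 in untrained wild-type mice.

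The median SD within a group was 0.113 log2 in trained and 0.138 in untrained transgenic mice, against 0.114 in trained and 0.114 in untrained wild-type mice.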
